A study of Mus with 10 samples.

Results

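The genes described here belong to the cornified envelope and the late differentiation of the epidermis, in mouse skin after PUVA. They were chosen by name: every gene symbol beginning with Sprr or Lce, plus Lor, Flg, Flg2, Ivl, Hrnr, Rptn, Casp14, Tgm1, Tgm3, Tgm5, Cdsn, Klk5, Klk7, Dsg1a and Dsc1. This gave 45 of the 22180 genes with a probe set of 1 symbol on the array, among them 12 Sprr and 18 Lce genes. RNA of 10 skin samples from female BALB/c mice aged 7 to 8 weeks was measured on Affymetrix gene arrays: 2 labelled control, 4 labelled PUVA with a 3-day gap (called the 3-day group) and 4 with a 7-day gap (called the 7-day group). In PUVA, psoralen is put on the skin and UVA light then makes it bind and crosslink DNA. It was given here at 0.25 J/cm2 2 times a week for 2 weeks. In the study the gap separated PUVA from imiquimod, which causes skin inflammation resembling psoriasis when applied to mice. Whether imiquimod had been applied to the skin on the arrays, and how the control skin was treated, is not in the labels, so the gap is not read as a time of sampling.

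When keratinocytes leave the granular layer they replace their membrane with the cornified envelope, a shell of proteins joined by transglutaminases. Involucrin is laid down early as a scaffold, loricrin makes up most of the mature shell, and Sprr and Lce proteins are joined into it. Filaggrin bundles keratin inside the dead cell, and corneodesmosomes hold the cells together until kallikrein proteases cut them. Many of these genes lie side by side in the epidermal differentiation complex. In the RefSeq annotation (assembly GRCm38.p6) 36 of the 45 were on chromosome 3, in the order Lor, the Sprr genes, Ivl, the Lce genes, Flg2, Flg, Hrnr and Rptn, with Sprr1a and Sprr4 next to each other among these genes and Rptn at the far end.

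All values are the authors' log2 values, 1 probe set per gene, so levels of different genes are not compared. On every array 19 of the 45 genes lay above the upper quartile of the array (7.68 to 7.73), among them both scaffold genes and all transglutaminases, proteases and corneodesmosome genes. Another 8, 4 Lce and 4 Sprr genes, lay below the lower quartile on every array (4.17 to 4.23). No background level is known for the probe sets, and differences of those 8 may be understated. Sprr2 and Lce1 genes are near-identical copies whose probes may share transcripts, and their values are uncertain as to which copy they measure. As to the labelled tissue, 5 of 6 suprabasal keratins, Krt1 and Krt10 among them, and 8 of 9 basal keratinocyte genes lay above the upper quartile on every array, as did all 7 fibroblast, 5 adipocyte and 5 skeletal muscle genes, so each sample held more than epidermis. With whole skin, fewer cells of a type and less RNA per cell cannot be told apart.

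The controls differed from each other. Control replicate 1 was higher than control replicate 2 in 34 of the 45 genes (75.6%, against 52.2% of all genes), and their median deviations from each gene's mean over the 10 arrays were 0.18 and -0.10 on the log2 scale. Control replicate 2 also stood apart in 13 hair follicle genes, with a mean of 8.36 against 6.27 in control replicate 1 and 5.21 to 5.62 on the PUVA arrays. Comparisons with control are therefore given with and without each control where this matters. Nothing says that the samples came from separate animals, and a p-value here takes in no more than the variation among these 10 samples, possibly technical.

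**Figure D1:**
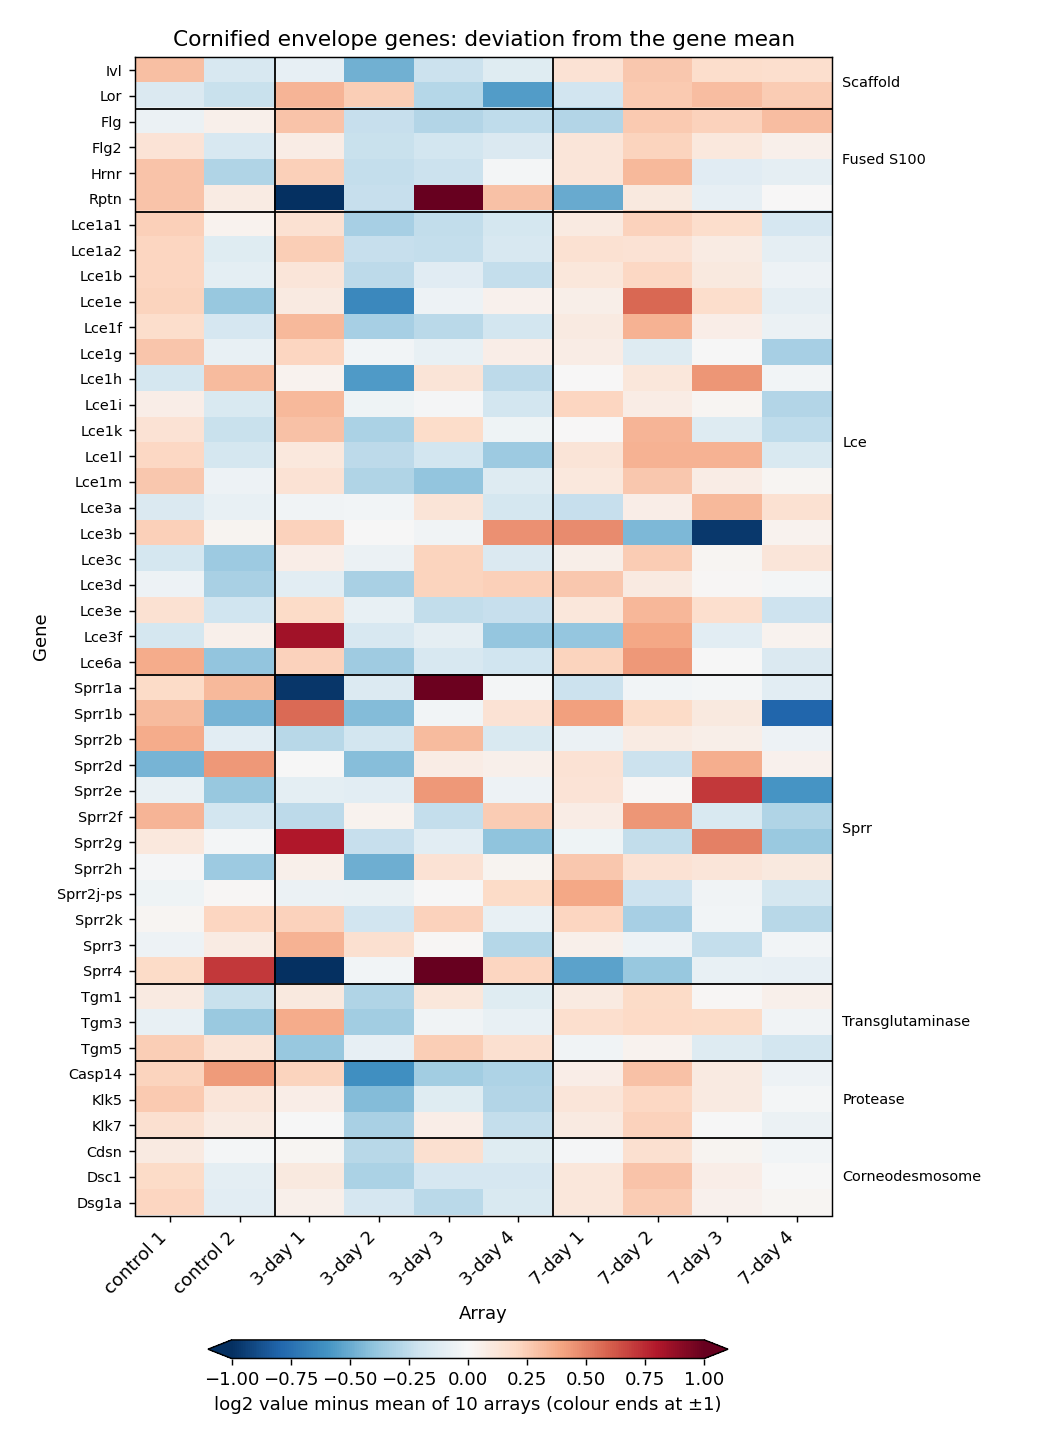
Each row is a gene, each column an array, and the colour is the log2 value minus the gene's mean over the 10 arrays (scale ends at 1 in either direction). Most genes of the fused S100, Lce, transglutaminase, protease and corneodesmosome groups are below their mean (blue) on 3-day replicate 2. On 7-day replicate 2 most of them are above it (red). Rptn, Sprr1a and Sprr4 are lowest on 3-day replicate 1 and highest on 3-day replicate 3.

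The first question was whether the genes differed between the 7-day and the 3-day group, a comparison that does not use the controls as reference. Ivl (involucrin), Dsg1a and Dsc1 (desmosomal cadherins), Flg2 (filaggrin 2), Casp14 (caspase-14) and Klk5 (kallikrein 5) lay higher in the 7-day group by 0.24 to 0.42 on the log2 scale, but no gene of the set passed the test. Of the 45 genes 31 lay above 0 and 14 below, with a median log2 difference of 0.14, where 46.8% of all genes lay below 0 and their median was 0.01. In limma 0 of 45 had an adjusted p under 0.05 (0.00902% of all genes had). The smallest adjusted p was 0.311. At an unadjusted p under 0.05, 8 of 45 (17.8%) were higher, against 5.33% of all genes, and 0 were lower, against 4.43%. The 2 groups did not overlap, upward, in 1 of the 45 genes, against 2.95% of all genes, and downward in 0, against 2.28%.

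That gene was Ivl, which encodes involucrin. Its log2 values were 9.48, 9.08, 9.34 and 9.43 on the 3-day arrays, 9.71, 9.83, 9.74 and 9.73 on the 7-day arrays, and 9.86 and 9.40 on the controls (here and below, replicates in order of their number). Every 7-day array was higher than every 3-day array, while control replicate 2 lay among the 3-day arrays and control replicate 1 above all PUVA arrays. The log2 difference between the PUVA groups was 0.42 ± 0.11 (SE), with an adjusted p of 0.311 in limma. Lor, which encodes loricrin, had 11.37, 11.28, 10.75 and 10.47 on the 3-day arrays, 10.84, 11.29, 11.34 and 11.28 on the 7-day arrays, and 10.89 and 10.80 on the controls. Its 3-day arrays fell into a high and a low pair, and 7-day replicate 1 lay with the controls, so that the groups overlapped (log2 difference 0.22 ± 0.19, SE).

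The fused S100 genes, which lie together beyond the Lce genes, were not uniform. Flg, the filaggrin gene, had 10.87, 10.35, 10.29 and 10.33 on the 3-day arrays and 10.29, 10.84, 10.82 and 10.89 on the 7-day arrays, with controls at 10.52 and 10.63. In each PUVA group 1 array stood away from the other 3, 3-day replicate 1 on the high side and 7-day replicate 1 on the low side, and the difference of 0.25 ± 0.16 (SE) was of the size of that spread. Flg2, a filaggrin relative, had 11.82, 11.53, 11.57 and 11.60 on the 3-day arrays, 11.87, 11.98, 11.86 and 11.80 on the 7-day arrays and 11.89 and 11.59 on the controls. Here 3-day replicate 1 lay inside the 7-day range and the other 3-day arrays below it (0.25 ± 0.09, adjusted p = 0.448). Hrnr, which encodes hornerin, had group means of 10.79 ± 0.42 (SD, n = 2) in control, 10.74 ± 0.22 (SD, n = 4) in the 3-day and 10.86 ± 0.20 (SD, n = 4) in the 7-day group. These means differed by less than the spread within the groups.

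Among the Lce genes 13 of 18 lay higher in the 7-day group, with a median log2 difference of 0.18. Those of Lce1 with an unadjusted p under 0.05 were Lce1l (0.34 ± 0.14, SE) and Lce1m (0.29 ± 0.12). Lce1m had 11.15, 10.70, 10.61 and 10.87 on the 3-day arrays and 11.10, 11.27, 11.08 and 11.02 on the 7-day arrays, with controls at 11.27 and 10.95. As with Flg2, 3-day replicate 1 lay with the 7-day arrays. A second probe set of Lce1m gave a mean of 8.85 for the 3-day and 8.96 for the 7-day group, a smaller difference than the one used. Lce1l had 6.93, 6.57, 6.65 and 6.46 on the 3-day arrays against 6.96, 7.17, 7.17 and 6.67, and controls at 7.03 and 6.65. In both, the groups overlapped. Lce1e had 7.65, 6.91, 7.50 and 7.59 on the 3-day arrays, 7.61, 8.12, 7.73 and 7.46 on the 7-day arrays and 7.77 and 7.17 on the controls, a log2 difference of 0.32 ± 0.20 (0.15 without 3-day replicate 2). Lce3b lay lower in the 7-day group, with 4.13, 3.90, 3.87 and 4.36 on the 3-day arrays, 4.37, 3.45, 2.93 and 3.93 on the 7-day arrays and 4.13 and 3.93 on the controls. Its difference of -0.39 ± 0.26 rested on single arrays. The value was -0.14 without 7-day replicate 3 and -0.62 without 7-day replicate 1. Lce3f, listed at 2.35 to 3.58 over all arrays, lay below the lower quartile throughout.

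The proteases lay higher in the 7-day group in all 3 genes. Casp14, a protease that takes part in filaggrin breakdown, had 10.10, 9.26, 9.53 and 9.57 on the 3-day arrays. It had 9.94, 10.17, 9.97 and 9.83 on the 7-day arrays, and 10.10 and 10.31 on the controls. Klk5, the kallikrein that activates others in the stratum corneum, had 10.24, 9.74, 10.06 and 9.88, then 10.30, 10.38, 10.26 and 10.16, and controls at 10.44 and 10.30. In both genes 3-day replicate 1 lay inside the 7-day range and 3-day replicates 2 to 4 lay below all 7-day arrays and both controls. The log2 differences between the PUVA groups were 0.36 ± 0.16 (SE) for Casp14 and 0.29 ± 0.11 for Klk5, with adjusted p of 0.493 and 0.446. Klk7, which cuts corneodesmosin, had 11.05, 10.73, 11.12 and 10.82 against 11.15, 11.28, 11.05 and 11.00, with a difference of 0.19 ± 0.10.

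Of the corneodesmosome genes, the 2 cadherin members had larger differences than Cdsn. Dsg1a (desmoglein 1 alpha) had 11.69, 11.46, 11.36 and 11.48 on the 3-day arrays, 11.75, 11.89, 11.68 and 11.65 on the 7-day arrays, and 11.85 and 11.53 on the controls. Dsc1 (desmocollin 1) had 11.45, 11.04, 11.19 and 11.19, then 11.47, 11.64, 11.42 and 11.35, and controls at 11.54 and 11.26. In both, 3-day replicate 1 alone reached the 7-day arrays. The log2 differences were 0.24 ± 0.10 (SE) and 0.25 ± 0.11, with adjusted p of 0.472 and 0.484. Cdsn, the gene of corneodesmosin, had 11.71 to 12.14 on the 3-day arrays and 11.97, 12.15, 12.01 and 11.96 on the 7-day arrays, a difference of 0.09 ± 0.10. Of the transglutaminases, Tgm1 (0.14 ± 0.11) and Tgm3 (0.15 ± 0.14) lay higher and Tgm5 lower (-0.07 ± 0.13), and in all 3 the groups overlapped.

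**Figure D2:**
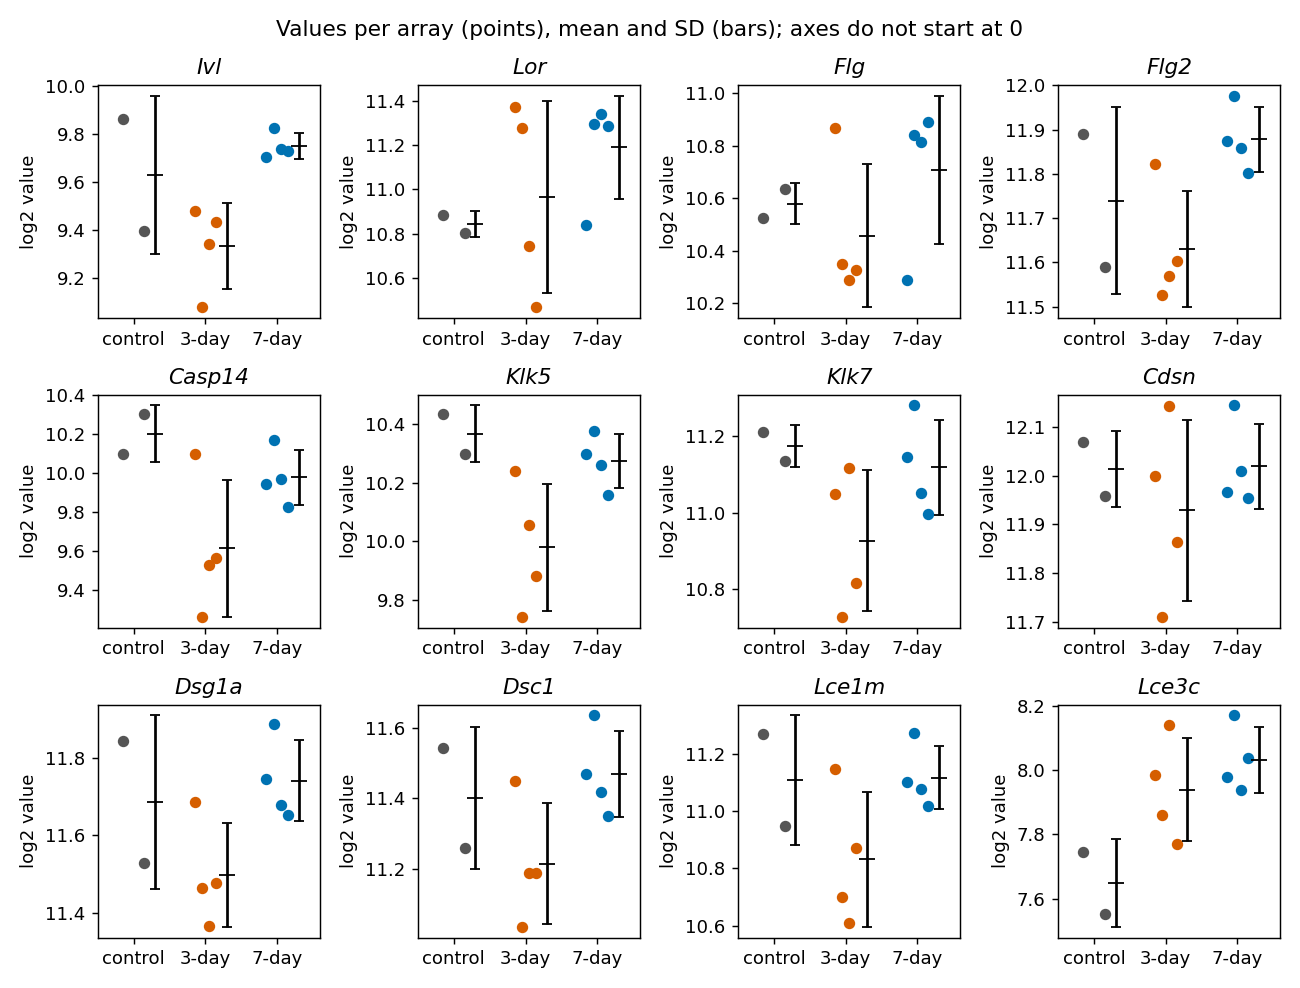
Log2 values of 12 genes (vertical axes, each with its own range that does not start at 0) in the control, 3-day and 7-day groups; points are arrays, and the bar beside them is the mean with its SD. In Ivl the 7-day arrays, from 9.71 to 9.83, lie above every 3-day array, and in Flg2, Casp14, Klk5, Dsg1a, Dsc1 and Lce1m 1 of 4 3-day arrays reaches the 7-day arrays.

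The Sprr genes did not share this direction: 5 of 12 lay higher and 7 lower in the 7-day group, with a median of -0.04. Sprr proteins bridge other envelope proteins, and several are known for induction in stressed epidermis. In 3 members the spread lay within the 3-day group. Rptn, which encodes the fused S100 protein repetin, had 6.68, 7.97, 9.75 and 8.49 on the 3-day arrays, a range of 3.07, against 7.69 to 8.29 on the 7-day arrays and 8.48 and 8.28 on the controls. Sprr4, whose human counterpart is known to be induced by ultraviolet light, had 9.71, 10.95, 12.24 and 11.20 on the 3-day arrays, 10.44 to 10.90 on the 7-day arrays and 11.17 and 11.69 on the controls. Sprr1a had 10.21, 11.04, 12.16 and 11.15, then 10.96 to 11.16, and controls at 11.37 and 11.50. In all 3 genes 3-day replicate 1 was the lowest and 3-day replicate 3 the highest of the 10 arrays. Tgm5 showed the same order over a smaller range (8.32 on 3-day replicate 1, 8.95 on 3-day replicate 3). Control replicate 1 was all but level with the latter, at 8.95. Rptn, Sprr4, Sprr1a and Tgm5 are 8.89% of the 45 genes, and 440 of all genes (1.98%) had 3-day replicates 1 and 3 at these ends. The order was defined after it was seen in members, so setting these shares side by side is not a test. 3-day replicate 1 was low in 8 sebocyte genes as well, with a list mean of 9.09 against 9.82 to 10.50 on the other 3-day arrays, and replicate 3 had the 10.50. Awat2, a wax synthase of sebaceous glands, had 10.01 and 9.06 on the controls, 6.90, 7.79, 8.37 and 7.74 on the 3-day arrays and 8.999 to 9.47 on the 7-day arrays, so its PUVA groups did not overlap (log2 difference 1.54 ± 0.29, SE, adjusted p = 0.167). The part of sebaceous tissue in the pattern of Rptn, Sprr4 and Sprr1a was not tested. Of the 45 genes 11 (24.4%) had a range over 1 across the arrays, against 7.40% of all genes. Sprr2g, annotated as a pseudogene and 1 of the 4 Sprr genes below the lower quartile on every array, lay at 2.64 to 3.84.

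**Figure D3:**
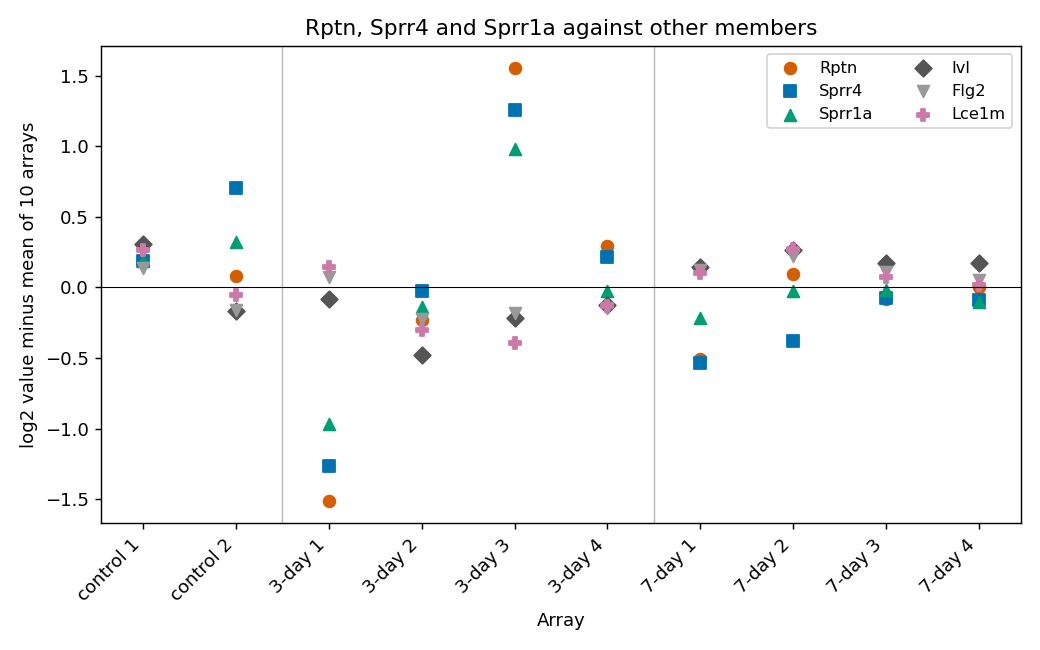
Log2 value minus the gene's mean over the 10 arrays (vertical axis) for each array (horizontal axis), 1 symbol per gene. Rptn, Sprr4 and Sprr1a are lowest on 3-day replicate 1 and highest on 3-day replicate 3, whereas Ivl, Flg2 and Lce1m stay within 0.5 of their means.

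Many members had the same arrays at the ends of a group. The median deviation of the 45 genes was 0.10, -0.23, -0.03 and -0.15 on the 3-day arrays and 0.09, 0.20, 0.06 and -0.05 on the 7-day arrays. 3-day replicate 1 was the highest 3-day array in 27 genes (60.0%, against 27.8% of all genes), and 7-day replicate 2 the highest 7-day array in 26 (57.8%, against 23.8%). Without 3-day replicate 2 the median difference between the PUVA groups was 0.07 in place of 0.14. The 7 fibroblast genes lay the other way: their median deviation was -0.14, 0.75, 0.16 and 0.19 on the 3-day arrays and -0.20, -0.37, -0.03 and 0.00 on the 7-day arrays, and -0.37 and 0.12 on the controls. The arrays lowest in envelope genes within the 3-day group and highest within the 7-day group were thus the highest and lowest in fibroblast genes. All 7 fibroblast genes lay lower in the 7-day group, Col3a1 with a log2 difference of -0.87 ± 0.20 (SE, adjusted p = 0.243). Basal keratinocyte genes had median deviations of -0.03, -0.17, -0.01 and -0.03, then -0.02, 0.11, 0.07 and 0.00, and 8 of 9 lay higher in the 7-day group. Lists of other tissues did not all lie opposite to the envelope genes. The 5 adipocyte genes had median deviations of 0.07, -0.32, 0.30 and -0.14 on the 3-day arrays and -0.08, 0.21, 0.06 and -0.07 on the 7-day arrays, and 4 of 5 lay higher in the 7-day group. The 5 skeletal muscle genes had 0.20, -0.21, -0.23 and 0.02, then 0.14, 0.05, 0.03 and 0.00, and 5 of 5 lay higher. On 3-day replicate 2, lowest in envelope genes within its group, both lists lay below 0. The part of the makeup of the samples in these differences was not tested.

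**Figure D4:**
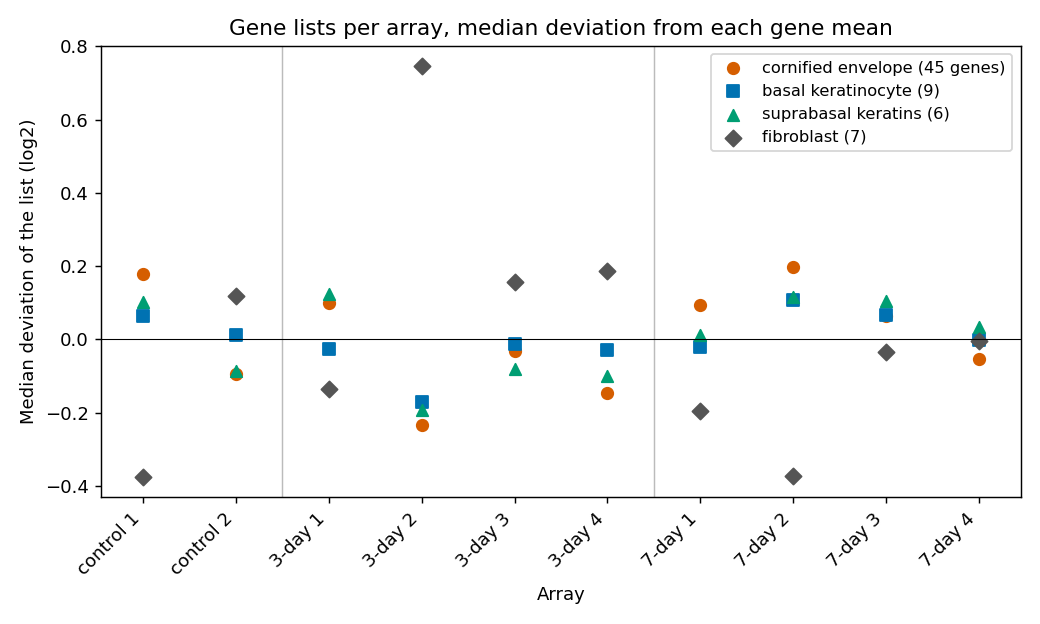
Median deviation of 4 gene lists (vertical axis, log2) on each array (horizontal axis), where the deviation is a gene's value minus its mean over the 10 arrays. On 3-day replicate 2 the fibroblast list is at 0.75 and the cornified envelope genes at -0.23, and on 7-day replicate 2 they are at -0.37 and 0.20.

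The second question was how the 3-day group differed from control. Casp14 and Klk5 lay lower and Lce3c lay higher with an unadjusted p under 0.05, but no gene of the set passed the test. Of the 45 genes 30 lay below 0 and 15 above (66.7%, against 49.4% of all genes), with a median of -0.09 against 0.00. In limma 0 of 45 passed (0.00451% of all genes did), and the smallest adjusted p was 0.394. At an unadjusted p under 0.05, 2 were lower (4.07% of all genes) and 1 higher (5.67%). The groups did not overlap, downward, in 2 genes (7.89% of all genes) and, upward, in 1 (9.52%), shares of the members that were below those of all genes. Without control replicate 1 the median was 0.021, with 20 genes below 0, and without control replicate 2 it was -0.23, with 33 below 0.

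Casp14 had a log2 difference of -0.59 ± 0.19 (SE, adjusted p = 0.394), with 3-day replicate 1 level with control replicate 1 at 10.10. Klk5, in which all 3-day arrays lay below both controls, had -0.39 ± 0.13 (adjusted p = 0.401). Klk7 had -0.25 ± 0.12 and did not overlap either, but 3-day replicate 3 (11.12) lay only just below control replicate 2 (11.13). Leaving out any 1 array, Casp14 kept values from -0.75 to -0.47 and Klk5 from -0.47 to -0.31. Ivl had -0.30 ± 0.14, which was -0.06 without control replicate 1 and -0.53 without control replicate 2. Lce3c belongs to the Lce3 group, known for induction after barrier injury. It had 7.74 and 7.55 on the controls, 7.98, 7.86, 8.14 and 7.77 on the 3-day arrays and 7.98, 8.17, 7.94 and 8.04 on the 7-day arrays. All PUVA arrays lay above both controls, 3-day replicate 4 (7.77) only just, and the log2 difference was 0.29 ± 0.12 (adjusted p = 0.472). Lce3a, Lce3d and Lce3f lay above 0 too, while Lce3b was near 0 and Lce3e below. For Sprr4 (-0.40 ± 0.50) and Sprr1a (-0.29 ± 0.38) the SE exceeded the difference, which was 0.035 and 0.020 without 3-day replicate 1.

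The third question was how the 7-day group differed from control. Of the 45 genes 15 lay below 0 (33.3%, against 45% of all genes), with a median of 0.05 against 0.02. In limma 0 of 45 passed (0% of all genes did), and the smallest adjusted p was 0.755. At an unadjusted p under 0.05, 1 was higher (3.21% of all genes) and 0 lower (2.68%). Upward, the groups did not overlap in 4 genes (8.89%, against 8.56% of all genes), which were Lce3c, Lce3d, Sprr2h and Tgm3. Downward, they did not overlap in 3 (6.67%, against 5.85%), which were Sprr1a, Sprr4 and Tgm5. Both shares of the members were near those of all genes. The mean of the 7-day group lay between the 2 controls in 25 of 45 genes (55.6%, against 40.1% of all genes). Without control replicate 1 the median was 0.17, with 16 genes below 0, and without control replicate 2 it was -0.09, with 33 below 0. The direction against control thus depended on which control was used.

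Lce3c had a log2 difference of 0.38 ± 0.12 (SE, adjusted p = 0.755), and 0.29 to 0.48 with any 1 array left out. It shares its controls with the 3-day comparison, so the 2 values are not independent. Lce3d had 6.21 and 5.94 on the controls and 6.25 to 6.53 on the 7-day arrays (0.27 ± 0.16). Sprr2h, a dim Sprr gene, had 3.96 and 3.61 on the controls, 4.02, 3.48, 4.11 and 4.00 on the 3-day arrays and 4.24, 4.12, 4.10 and 4.07 on the 7-day arrays. Its difference was 0.35 ± 0.17, which was 0.52 without control replicate 1 and 0.17 without control replicate 2. In these genes the margin over the higher control was small. Tgm3, the transglutaminase of late differentiation and hair, had 8.86 and 8.57 on the controls and 9.11, 9.14, 9.13 and 8.90 on the 7-day arrays, with 9.31, 8.59, 8.91 and 8.86 on the 3-day arrays. Its difference was 0.35 ± 0.17, which was 0.50 without control replicate 1 and 0.21 without control replicate 2. Tgm1, the main transglutaminase of the envelope, had means of 9.12 ± 0.22 (SD, n = 2), 9.13 ± 0.20 (SD, n = 4) and 9.27 ± 0.08 (SD, n = 4) in the control, 3-day and 7-day group. Sprr4 had -0.72 ± 0.50, which was -0.98 without control replicate 1 and -0.46 without control replicate 2. Its value on control replicate 2, 11.69, was higher than that on control replicate 1. Casp14 (-0.22 ± 0.19) and Klk5 (-0.09 ± 0.13) had smaller differences from control than in the 3-day group.

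**Figure D5:**
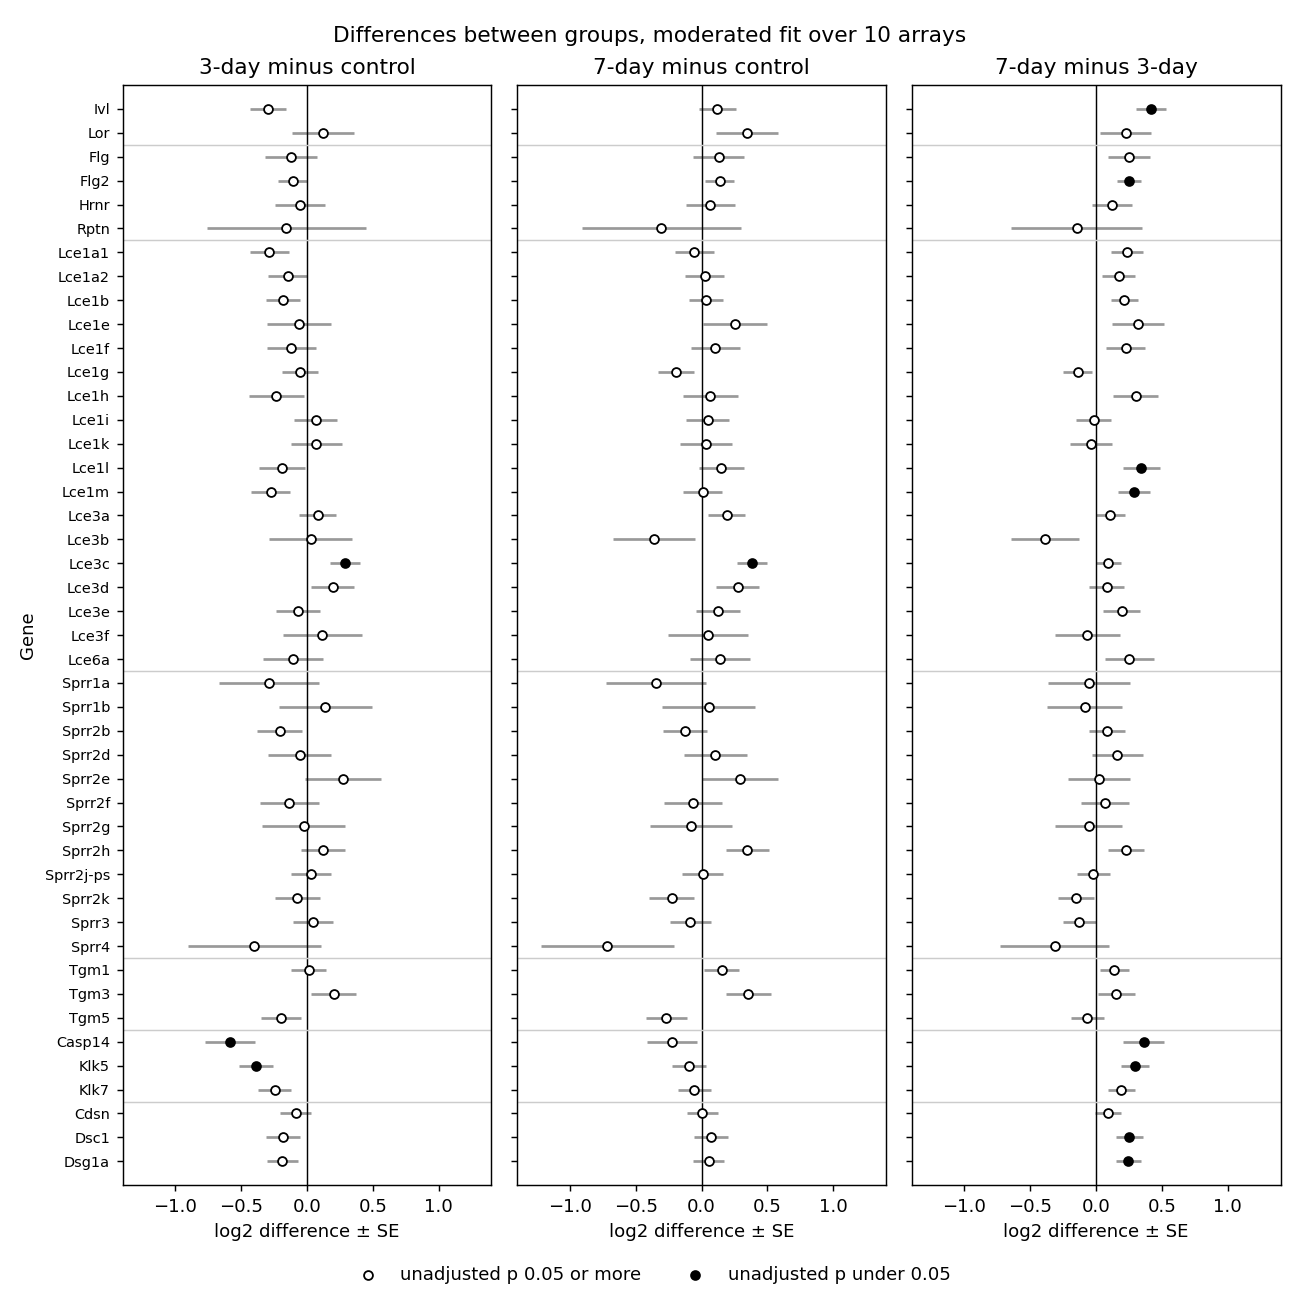
Log2 differences with their standard errors (horizontal axes) for the 45 genes (rows, grouped by role) in the 3 comparisons; filled points have an unadjusted p under 0.05. In the comparison of the PUVA groups the 8 filled points lie to the right of 0, and the first 2 comparisons share their control arrays.

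Other genes of the pathway, taken from lists by function, mostly lay on the same side as the members between the PUVA groups. In the 7-day against the 3-day group 15 of 20 differentiation regulators lay higher, 13 of 14 genes of the lipid envelope, 7 of 8 of filaggrin processing, 11 of 13 further desmosome genes, 11 of 15 further envelope precursors and 5 of 6 suprabasal keratins, where 46.8% of all genes lay below 0. None of these passed in limma (the smallest adjusted p was 0.377), and at an unadjusted p under 0.05 they held 3, 2, 0, 1, 1 and 0 genes higher, against 5.33% of all genes, and none lower. In the last 4 of these lists the counts were near or below that share. The upward lean was not particular to the pathway. Higher in the 7-day group were 8 of 9 basal keratinocyte, 6 of 8 sebocyte, 4 of 5 adipocyte and 5 of 5 skeletal muscle genes. So were 8 of 13 hair follicle genes, but only 2 of 5 immune and 0 of 7 fibroblast genes. Grhl1 and Zfp750, transcription factors of keratinocyte differentiation, had log2 differences of 0.26 ± 0.09 (SE) and 0.26 ± 0.08, with adjusted p of 0.428 and 0.377. Pnpla1, which makes the ceramides bound to the envelope, had 0.38 ± 0.13. Further desquamation proteases and inhibitors were split, 6 higher and 6 lower. In this list Klk8, another kallikrein of the epidermis, had 8.18 and 8.08 on the controls, 7.85, 7.47, 7.38 and 7.46 on the 3-day arrays and 8.00, 8.07, 8.07 and 7.83 on the 7-day arrays. Its 3-day arrays lay below both controls, and the differences were -0.59 ± 0.13 against control (adjusted p = 0.223) and 0.45 ± 0.11 between the PUVA groups (adjusted p = 0.249).

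Some genes of these lists were high on control replicate 2 alone. Crnn, Padi3 and Prr9, an envelope-linked gene, a filaggrin-modifying enzyme also of the hair follicle, and a neighbour in the complex, had 7.42, 6.82 and 7.15 on control replicate 2 against 5.04, 4.54 and 4.96 on control replicate 1. On the 3-day arrays Crnn had 4.40 to 4.66, Padi3 4.31 to 4.57 and Prr9 4.72 to 5.04. This control was also the one with high hair genes, and the part of hair follicles in these values was not tested. Among genes of activated epidermis, Defb4, which encodes a beta-defensin, had 5.95 and 5.97 on the controls, 5.87, 5.89, 5.94 and 5.75 on the 3-day arrays and 6.04, 6.28, 6.35 and 6.35 on the 7-day arrays. Its 3-day arrays lay below and its 7-day arrays above both controls, with a log2 difference between the PUVA groups of 0.39 ± 0.08 (SE, adjusted p = 0.230). Krt6b lay the other way between the PUVA groups. Krt6b, a keratin of stressed epidermis, had 6.05 and 5.38 on the controls, 6.98, 5.999, 7.01 and 6.88 on the 3-day arrays and 5.83 to 6.28 on the 7-day arrays. Its log2 difference was 1.004 ± 0.28 (SE) in the 3-day group against control (adjusted p = 0.319) and -0.73 ± 0.23 between the PUVA groups (adjusted p = 0.377). Of this list 6 of the 9 measured genes lay below 0 in the 3-day group against control, and 7 of 9 lay above 0 between the PUVA groups.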

How the data were processed

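Skin RNA was labelled with the Affymetrix WT PLUS kit, per the labels' protocols. The deposited table held the authors' log2 values, 1 per probe set and array (41345 rows); their summarisation, normalization and log base are not given in the sources used. Base 2 is an inference from the spread of values. Array medians were 5.83 to 5.86. Precision depends on how many arrays there are, since no read depth exists. By the platform's annotation 23521 probe sets had 1 symbol, 1814 several and 16010 none listed, and 1082 genes with more than 1 kept the one with the highest mean. Of the members 1 had a second probe set, 45 matched RefSeq by Entrez identifier, and 2, Sprr2g and Sprr2j-ps, are annotated as pseudogenes. Left out were 7 probe sets with several symbols, and 8 RefSeq symbols that the rule covers were not analysed here.

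Groups were compared by two-sided moderated tests of limma (version 3.58.1, under R 4.3.3, with 7 residual and 3.51 prior degrees of freedom) over all 10 arrays and genes, with Benjamini-Hochberg adjustment over all genes and a threshold of 0.05. All groups share 1 spread per gene. On simulated data with 200 of 22180 genes changed by a log2 change of 1, the fit recovered 86.5% (3-day against control), 87% (7-day against control) and 92% (between the PUVA groups). Recovery of smaller changes was not tested, and the members' log2 differences in the 3 comparisons were all smaller, from -0.72 to 0.42. The simulated noise was normal and independent between genes, and the 200 changes came together, which eases the adjustment. In the data 1, 0 and 2 genes passed, so the shares recovered may be too high for them. Awat2, with a log2 difference of 1.54 between the PUVA groups, had an adjusted p of 0.167 in limma. Members and lists were chosen with earlier results of these data known. Values were given by rule for all members outside the Sprr and Lce families, for some of them only as ranges, group means or differences. They were also given for the 5 with the largest differences and those with an unadjusted p under 0.05 in each comparison. The highest and lowest Sprr and Lce genes by mean were added, and from other lists up to 3 genes with the smallest p in any comparison. Alternatives were the filters, probe set rules, normalizations and fits named in the closing section. Replicates are numbered in accession order.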

Additional observations from a re-analysis of the deposited data

Results flagged for a closer look

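Of 90 checks (45 genes in 2 PUVA groups of 4 arrays) for an array far from the other 3 of its group, 7 were positive; chance flags about 1 in 20. Flg stood at 10.87 on 3-day replicate 1 (others 10.29 to 10.35) and at 10.29 on 7-day replicate 1 (others 10.82 to 10.89). Lor was also low on 7-day replicate 1, at 10.84 (others 11.28 to 11.34), and Lce1a2 high on 3-day replicate 1, at 8.18 (others 7.70 to 7.78). Tgm3 was low on 7-day replicate 4, at 8.90 (others 9.11 to 9.14). Among Sprr2 genes, Sprr2d stood at 4.64 on 3-day replicate 2 (others 5.06 to 5.13) and Sprr2e at 5.77 on 3-day replicate 3 (others 5.23 to 5.29). None of the 45 genes had all 3-day arrays on one side of both controls and all 7-day arrays on the other. The share of all genes with this pattern was not computed, so the count is not read as a trait of the members.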

How the results depend on the processing

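No member passed an adjusted p of 0.05 in any of the 3 comparisons under any alternative run: the lowest 30% of genes by mean left out, the mean of a gene's probe sets, quantile normalization, median centring, trend and robust eBayes, array weights, only the groups compared, or any 1 array left out (0 to 0 members). The number of all genes that passed did change. For the 3-day group against control it was 1, and 3 with array weights and 1 to 182 with 1 array left out, the 182 without control replicate 1. For the 7-day group against control it was 0, and 0 to 217 with 1 array left out, again without control replicate 1. Between the PUVA groups it was 2, and 1 without the lowest 30%, 6 with array weights, 1 with only the groups compared and 0 to 10 with 1 array left out. The median difference of the members with 1 array left out ran from -0.23 to 0.021, from -0.094 to 0.17 and from 0.07 to 0.21 in the 3 comparisons, and the number below 0 from 20 to 34, from 12 to 33 and from 9 to 16. Without the lowest 30% of genes, fewer members were tested and 9 and 6 lay below 0 in the last 2 comparisons. Sprr4 and Sprr1a turned from -0.40 and -0.29 to 0.035 and 0.020 in the 3-day group against control without 3-day replicate 1, and were -0.81 and -0.63 without 3-day replicate 3. The causes of these changes were not tested beyond this. A fit with a lone control takes its variation from the PUVA groups. No paired analysis was possible because the groups share no replicate numbers in the labels. The 2 controls, and signal over background that is not known for dim genes, limit the precision.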

Other observations

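The order of arrays seen in Rptn, Sprr4 and Sprr1a, with 3-day replicate 1 lowest and 3-day replicate 3 highest of the 10 arrays, was followed up after the values were seen, by ranking all 440 genes with that order by their range. Since the order chose the genes, their range lies within the 3-day group by construction, and no theme was tested for. The largest range was that of Cyp2b23, with 4.54 on 3-day replicate 1 and 8.15 on 3-day replicate 3, and the next was that of Aadacl4fm2, with 5.96 and 9.32. Tmprss11e, a serine protease of epithelia, had 6.06 and 9.13. Rptn was the 4th in rank. Serpina3j had 7.61 and 10.47, and the kallikrein Klk10 had 8.55 and 11.33. Sprr4 was the 7th, followed by Ces4a (7.64 and 10.06), Sgpp2 (6.48 and 8.89) and Aadacl4fm5 (7.24 and 9.60). Sprr1a was the 16th and Tgm5 the 214th.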
